A study of Mus musculus and Rattus norvegicus with 2 samples.

Results

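PIWI-interacting RNAs (piRNAs) are small RNAs of the germ line that guide PIWI proteins to transposon and other transcripts. The mature forms are longer than microRNAs and usually begin with uridine, because the PIWI protein holds the first base, and their 3′ end is trimmed to length from a longer intermediate. A PIWI protein that is guided by a piRNA cuts a paired target between the bases opposite positions 10 and 11 of the guide. In testis, piRNAs are abundant in meiotic and postmeiotic germ cells, and databases of piRNA records were built from such size-selected RNA, so records can also hold pieces of tRNA or rRNA of the same length.

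The sequences described here were matched to a piRNA record but were shorter than a mature piRNA. A member was any listed sequence of 18 to 25 nt whose matched entry was a named piRNA record (piR in its name) or a GenBank record of type piRNA, and its value was its read count. The mouse library held 5587 such sequences of 914516 listed, with 32661 reads under 2763 records. The rat library held 17975 of 650877, with 77029 reads under 9183 records. Small RNAs of 18 to 45 nt were sequenced from purified sperm of the caput, the first segment of the epididymis. The mouse sample came from C57BL/6 animals aged 2 months and the rat sample from Sprague Dawley young adults of 450 g, both unmanipulated. The labels do not say how many animals were used or whether they were pooled. Each species had 1 library, so no difference has a replicate check and no test was made. Intervals are exact 95% binomial (Clopper-Pearson) intervals, which cover counting error only, and PCR copies are not independent molecules.

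The depth was 11760708 listed reads in mouse and 14652889 in rat. By the sperm-enriched miR-34c-5p the libraries differed, with 4.25 reads per 1000000 listed reads (rpm) in mouse and 502.6 in rat, and miR-449a had 0.510 and 209 rpm. The epithelial miR-200 family (miR-200a, b and c, miR-141, miR-429) had 207 rpm in all in mouse and 339 in rat. The leukocyte miR-142, miR-223 and miR-150 together had 0.765 and 17.2 rpm. Species and library cannot be told apart in any value below, and fewer cells of a type and less RNA per cell cannot be told apart either. What part these marker levels have in the results was not tested.

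The sequences that carry the result fall into 4 kinds. The first 5 lines show members that are pieces of rRNA or tRNA, with the member in capitals inside the most abundant longer read of the rRNA or tRNA entries that holds it (lower case where it runs on). The letters are as in the deposited tables, with T for U, written 5′ to 3′.
piR-1330 (mouse): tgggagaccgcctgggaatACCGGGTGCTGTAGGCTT
DQ603342.1 (rat): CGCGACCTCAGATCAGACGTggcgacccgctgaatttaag
DQ614340.1 (rat): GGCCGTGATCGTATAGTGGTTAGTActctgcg
rno_piR_005596 (rat): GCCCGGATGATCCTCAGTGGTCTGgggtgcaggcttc
AB350089.1 (mouse): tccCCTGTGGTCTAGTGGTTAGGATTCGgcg
The next 2 lines show members that lay inside a longer piRNA-entry read and so counted as trimmed piRNAs, but that are also exact pieces of a mouse glycine tRNA gene (lower case), n-TGccc7.
piR-524 (mouse): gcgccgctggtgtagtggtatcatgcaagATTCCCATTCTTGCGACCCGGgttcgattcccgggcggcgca
rno_piR_022904 (rat): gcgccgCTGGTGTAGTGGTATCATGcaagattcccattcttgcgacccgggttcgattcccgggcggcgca
The next 3 lines show members with the 5′ end of a longer piRNA-entry read, where the capitals are the member and the lower case the missing 3′ part.
rno_piR_002302 (rat): GAAAATGATGAATTCTGGGGCGCTgatt
rno_piR_031729 (rat): ATGCATTGTAGGATGATTGGCACTgtc
piR-142064 (mouse): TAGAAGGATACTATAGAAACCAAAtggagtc
The last 3 lines show rat piRNA-entry reads in whole. Capitals mark the stretch, from base 11 on, that is complementary to a 19-nt member listed on the minus strand of the record. In the last line the longer read ends at base 28, so the 5′ base of the member has no base opposite.
Opposite rno_piR_036199: tcttgtctttGTTAAATTCTAGTCCACAGa
Opposite rno_piR_014686: tacaagtccaAGAGGTTCAAGTCTCCGGGc
Opposite rno_piR_010217: tagcaggatgGTTTGGATTCAGGTCTCT

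Short piRNA-entry reads made up 0.278% of listed reads in mouse (0.275 to 0.281) and 0.526% in rat (0.522 to 0.529), 1.89-fold more in rat (1.87 to 1.92). This fold depends on the total. Without the reads of 1 small nucleolar RNA entry, SNORD58, the mouse total was 7739259 and the fold 1.25 (1.23 to 1.26), and with each distinct sequence counted once it was 4.52 (4.39 to 4.66). For piRNA-entry reads of 26 to 33 nt the same ratio was 9.87 (9.77 to 9.97), so the libraries differed far less in the short piRNA-entry reads than in the longer ones. Short reads accordingly held 42.2% of all piRNA-entry reads in mouse and 12.7% in rat. These are not values of piRNAs alone, since tRNA sequence (as defined below) made up 51.1% of the longer reads in mouse and 86.5% in rat. Without structured-RNA sequence, 9859 longer and 10781 short reads remained in mouse, and 68984 and 38156 in rat. Of all listed reads of 18 to 25 nt, of any class, the short piRNA-entry reads of any content were 1.83% in mouse and 3.47% in rat. The length limit cuts through a continuous range: at 25 nt, just inside, there were 379 sequences with 3072 reads in mouse and 1987 with 10731 in rat, and at 26 nt, just outside, 378 with 2618 and 2352 with 12845.

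Each member was assigned by sequence content. A member was called tRNA or rRNA sequence when at least 0.3 of its 14-nt words occurred in reads listed under tRNA or rRNA entries with 10 or more copies in either library. Other structured RNA was assigned in the same way from miRNA, snoRNA, snRNA and other Rfam entries. A remaining member was called a trimmed piRNA when it lay, base for base, inside a piRNA-entry read of 26 to 33 nt with 2 or more copies in the same library that itself had no such words. The others are called unplaced.

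In mouse, 65.0% of member reads were rRNA sequence (64.5 to 65.5), 0.909% were tRNA sequence (0.809 to 1.02), 1.07% other structured RNA, 6.39% trimmed piRNA (6.13 to 6.66) and 26.6% unplaced. In rat, 31.02% were rRNA sequence (30.7 to 31.4), 17.7% tRNA sequence (17.4 to 18.0), 1.74% other structured RNA, 20.8% trimmed piRNA (20.5 to 21.1) and 28.7% unplaced. Pieces of rRNA and tRNA together were thus 65.9% of mouse and 48.7% of rat member reads. They were few sequences with many copies each. By distinct sequence they were 26.7% in mouse and 7.99% in rat, and a rat rRNA-sequence member had 29.2 copies on average against 1.93 for an unplaced one. Trimmed piRNAs were 27.2% of rat but 5.41% of mouse sequences, and unplaced ones were 63.9% and 65.7%. The name trimmed piRNA states only that a member lay in such a longer read. In mouse, 34.4% of the sequences so called and 26.6% of their reads began with U. In rat the shares were 84.1% and 53.1%. Under mRNA entries, 18- to 25-nt sequences without structured-RNA sequence began with U in 27.0% in mouse and 21.5% in rat.

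**Figure D1:**
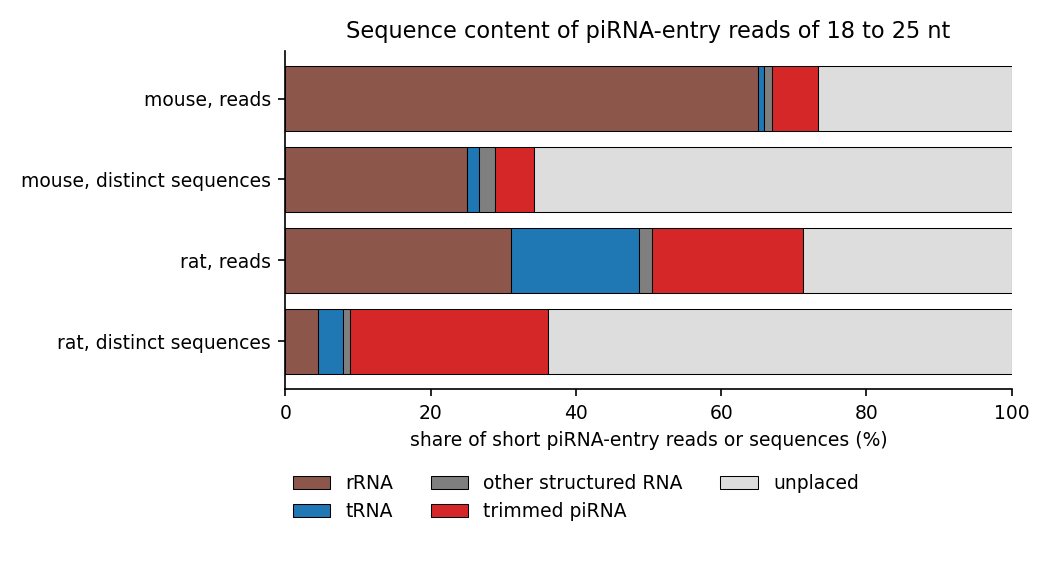
Stacked bars of the share (%) of short piRNA-entry reads and of distinct sequences by content in the mouse and the rat library (1 library each, no error bars). The rRNA segment is 65.0% of mouse reads but 24.97% of mouse sequences, and the trimmed segment is wider in rat (20.8% of reads) than in mouse (6.39%).

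Against all listed reads, the groups differed between the libraries by very unequal amounts. The rRNA-sequence members stood at 0.903 times the mouse level in rat (0.887 to 0.920). Without SNORD58 reads in the total this was 0.594, with piRNA hosts looked for first 0.489, and among members without a mismatch 1.06 (1.04 to 1.08), so its direction was not kept. The tRNA-sequence members were 36.9-fold higher in rat (32.9 to 41.5). This fold moved most with the assignment: it was 58.1 with all words required, 111.0 among members without a mismatch, 11.9 with words of tRNA genes added, 24.3 without SNORD58 reads in the total, 8.86 by distinct sequence and 4.69 with piRNA hosts looked for first. The trimmed members were 6.17-fold higher in rat (5.89 to 6.46), 4.06-fold without SNORD58 reads in the total, 9.37-fold with hosts of at least 10 copies, 22.8-fold by distinct sequence and 1.96-fold with piRNA hosts looked for first. Unplaced members were 2.04-fold higher in rat (1.99 to 2.09). Reads listed under tRNA entries themselves were 257400 rpm in mouse and 555300 in rat. All these folds of members cover only sequences listed under a piRNA entry, and the same sequence can stand under another entry in the other library. Of the rat tRNA-sequence members, 100 were listed in mouse under any entry, but only 6 were members there.

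The order of assignment decides most of these shares. When longer piRNA-entry reads were looked for first, whatever their sequence, 64.9% of mouse and 67.1% of rat member reads lay inside one, and the rRNA-sequence share fell to 7.31% and 1.89%. Most rRNA and tRNA pieces among the members therefore also had a longer read under a piRNA entry. Among piRNA-entry reads of 26 to 33 nt, tRNA words were in 51.1% of reads in mouse and 86.5% in rat, and rRNA words in 23.5% and 0.413%. Short and long piRNA-entry reads differed in which structured RNA they held: rRNA led among the short reads of both libraries and tRNA among the longer ones.

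Ribosomal members came from few places. The leading mouse record was piR-1330, with 6064 reads in 92 sequences, 18.6% of all mouse member reads, of which 6014 were rRNA sequence. The read printed above, 18 nt and 1211 reads, is the 3′ end of 5S rRNA, the smallest rRNA of the large ribosomal subunit. The same end was listed with 1185 reads at 23 nt, 944 at 25 nt and 870 at 24 nt, so the 3′ end was shared and the 5′ end varied. Members with 5S words made up 28.7% of the mouse rRNA-sequence reads (28.1 to 29.3) and 1.01% of those in rat (0.886 to 1.14). In rat, the 18-nt sequence was itself listed with 5787 reads, but under an rRNA entry, and the 23-nt one with 7671 under an mRNA entry. The 18-nt sequence stood at 103.0 rpm in mouse and 394.9 in rat.

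The next mouse records were piR-120463, with 2823 reads of which 2780 were rRNA sequence, and piR-4034, with 1326 of which 1324 were. The fifth most abundant mouse member, 24 nt of piR-22205 with 668 reads, belongs to 28S rRNA, the long RNA of the large subunit. No mouse member had 18S or 5.8S words, and 71.3% of mouse rRNA-sequence reads matched GenBank rRNA records only.

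In rat, DQ603342.1 led with 10346 reads in 27 sequences, 13.4% of all rat member reads, and 10315 of them were rRNA sequence. Its 20-nt read of 7228 copies and its 24-nt read of 2489 copies begin at the 5′ end of 28S rRNA, as does the 18-nt read of DQ603343.1 with 4618 copies. The rRNA entries of the same library held a 40-nt read with this start at 50716 copies. Here the 5′ end was shared and the 3′ end varied, the reverse of the mouse 5S pieces. In mouse, the 18-nt form had 418 reads, also under a piRNA entry, and the 20- and 24-nt forms were not among the listed sequences. Members with 5.8S words, all under DQ603317.1, added 2665 rat reads, 11.2% of the rRNA-sequence reads. Members with 18S words added 629, or 2.63%.

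Pieces of tRNA had 13641 reads among the rat members and 297 among the mouse members. The leading record was DQ614340.1 with 5062 reads, of which 5033 were a single 25-nt sequence, the 5′ end of a histidine tRNA. In mouse this sequence had 68 reads and was listed under a tRNA entry. The 32-nt read that extends it had 43386 copies under tRNA entries in mouse. The second record was rno_piR_005596 with 4072 reads in 127 sequences, led by 1946 copies of a 24-nt read from the 5′ end of the selenocysteine tRNA, which delivers selenocysteine to proteins such as the glutathione peroxidase of sperm. The same read had 368 copies in mouse, under a tRNA entry. The third sequence, 21 nt of rno_piR_000194 with 598 reads, is the 5′ end of the initiator methionine tRNA, and its 23-nt form was a mouse member under AB349873.1 with 21 reads. The leading mouse tRNA pieces were 25-nt reads of AB350089.1, a glutamate tRNA fragment, with 32 and 27 reads and 2 mismatches to the record. The tRNA-sequence reads were more at 25 nt than at 18 nt, with 99 against 15 in mouse and 5975 against 520 in rat, but not in even steps: mouse had 15 again at 21 nt, and rat had 1321 at 21 nt and 649 at 22 nt. Within 18 to 23 nt, the rat tRNA-sequence share was 8.77% of member reads. At 31 nt there were 7335 reads in mouse and 195772 in rat, where 29 nt held 12324.

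**Figure D2:**
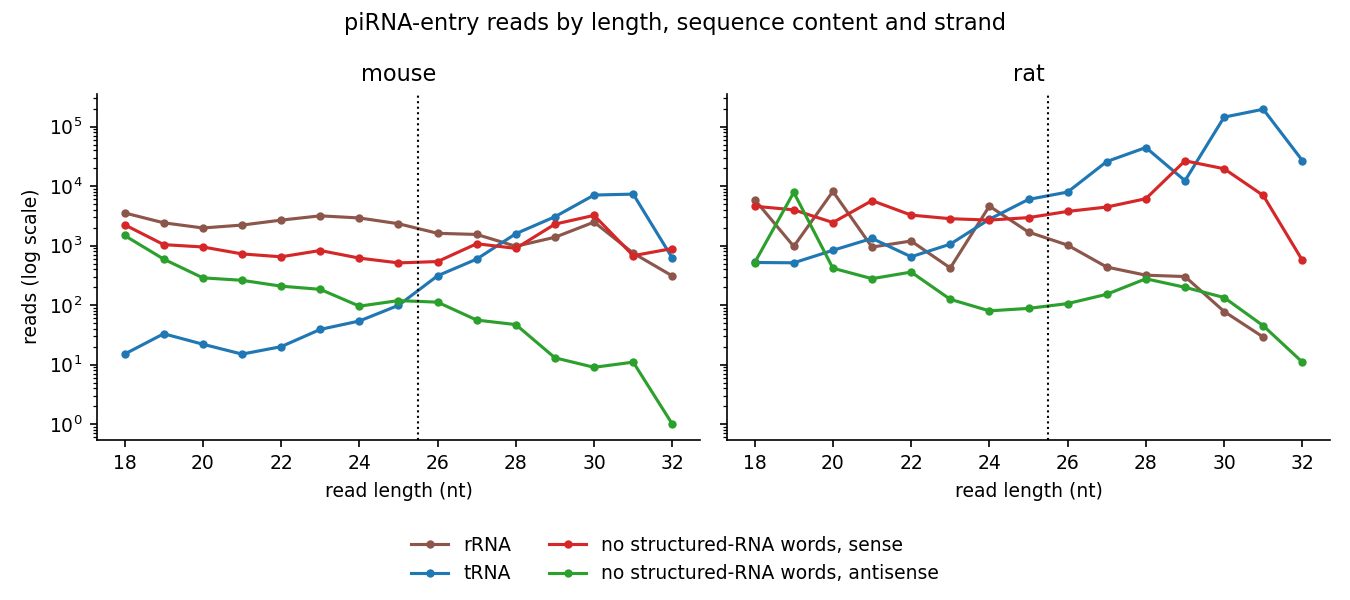
Reads (log scale) of piRNA-entry sequences of 18 to 32 nt by length in the mouse and the rat library, split by sequence content and, for those without structured-RNA words, by strand relative to the record. The dotted line marks the upper limit of 25 nt, and the antisense rat reads stand at 7849 at 19 nt between 516 at 18 nt and 417 at 20 nt.

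Some members called trimmed piRNAs were tRNA sequence below the limits set for tRNA words. The mouse gene n-TGccc7 (glycine tRNA with a CCC anticodon; GRCm38.p6, chr17:25875088-25875158, plus strand, 71 nt, inside an exon of Mettl26 transcripts) holds the 2 leading mouse members of the trimmed group. These were the 21-nt and the 23-nt read of piR-524, with 203 and 157 reads, and both begin at base 30 of the tRNA. In all, 47 trimmed mouse sequences with 765 reads carried words of this gene, 36.7% of the trimmed reads. In rat, 39 trimmed sequences with 1943 reads did, 12.1% of the trimmed reads, led by the 840 reads of rno_piR_022904 at bases 7 to 25. The 29-nt read that holds it had 862 copies and starts at base 1 of the tRNA gene. Another 33 rat trimmed sequences with 175 reads carried words of the arginine tRNA gene n-TRtcg5. Only 13 of the 430 RefSeq tRNA genes could be read in the sequences at hand, so these counts are a minimum. With the words of these genes added, the tRNA-sequence share became 3.27% in mouse and 20.6% in rat, and the trimmed share 4.05% and 18.0%.

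Members below the limit for structured-RNA words (called without such words here), trimmed and unplaced together, were 3974 mouse and 16379 rat sequences. On the plus strand, in the sense of the record, they were 2441 sequences with 7555 reads in mouse and 12897 with 28444 in rat. Of the sense sequences, 40.2% began with U in mouse and 80.7% in rat, where 26.1% and 20.8% of sense sequences of the same length under mRNA entries did. Among sense members without a mismatch to their record, the shares were 59.3% of 680 sequences in mouse and 88.0% of 10236 in rat. In rat the share grew from 68.6% at 18 nt to 87.7% at 25 nt, next to 93.1% at 30 nt. In mouse it grew from 34.6% to 57.6%, and to 87.3% at 30 nt. The rise was not smooth from length to length in either library: 22-nt rat sequences stood at 80.0%, below the 82.6% at 21 nt.

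**Figure D3:**
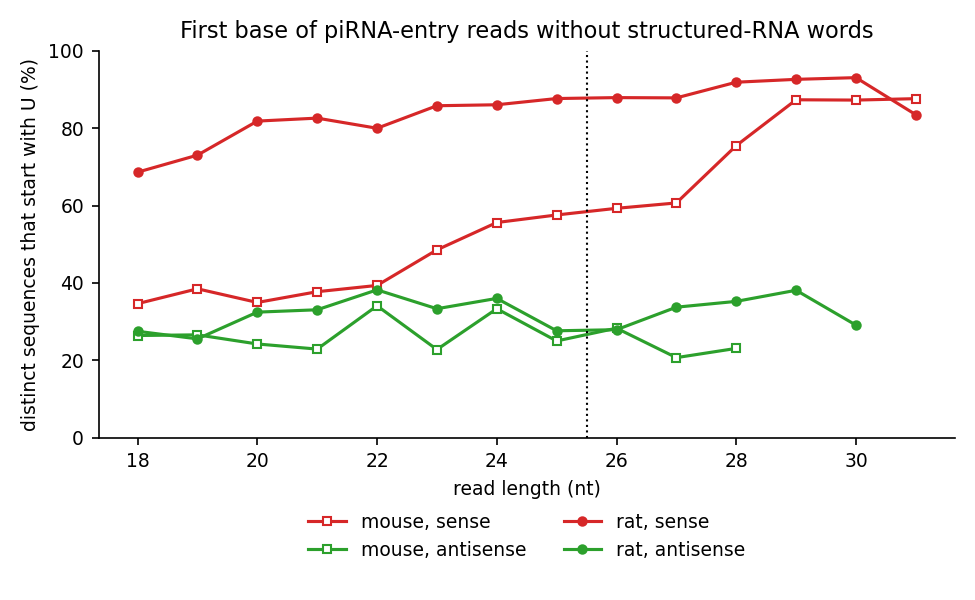
Share (%) of distinct piRNA-entry sequences without structured-RNA words that start with U, by length, for sense and antisense sequences of the mouse (open) and the rat (filled) library, where at least 20 sequences were listed. The rat sense line stays above the mouse sense line at every length shown up to 30 nt, and both antisense lines lie below 40%.

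The trimmed sense members mostly lacked the 3′ part of a longer piRNA-entry read in rat. Of 4764 rat sense sequences inside a longer read, 3163 (66.4%), with 7795 reads, shared its 5′ end, 740 shared its 3′ end and 861 touched neither end. By reads it was 60.6% of the contained reads. The measure was not particular to piRNA entries: sense mRNA-entry reads of 18 to 25 nt that lay in a longer mRNA-entry read shared its 5′ end in 44.6% of rat sequences and 70.1% of reads, those under tRNA entries in 56.6% of sequences and those under rRNA entries in 78.5%. Of the 253 mouse ones, 81 (32.02%) shared the 5′ end, 106 the 3′ end and 66 neither. A start at the first base of the longer read made up 51.6% of all placements of rat sense members and 5.87% were at the second base. For sense mRNA-entry reads of the same lengths in longer mRNA-entry reads, the first base held 13.1% and the second 11.02%. In mouse the first base held 20.4% of the members' placements and 7.17% of those under mRNA entries. A sequence counts once at each start it has, so the share depends on how many longer reads hold it. In rat there were 6133 placements for 4764 members, but 26813 for 7840 mRNA-entry sequences. Under rat tRNA and rRNA entries the first base held 12.8% and 9.65% of placements, although 56.6% and 78.5% of sequences shared the 5′ end. Placement shares of different classes are therefore not directly comparable. Members with the 5′ end of a longer read have its first base by definition, so their U share follows from that of the longer reads. It was 91.1% of rat sequences, where 91.8% of all longer sense rat reads began with U. In mouse 54.3% of such members began with U. There, 81.7% of the longer sense reads chosen in the same way began with U, but 47.3% of those with a shortened form.

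**Figure D4:**
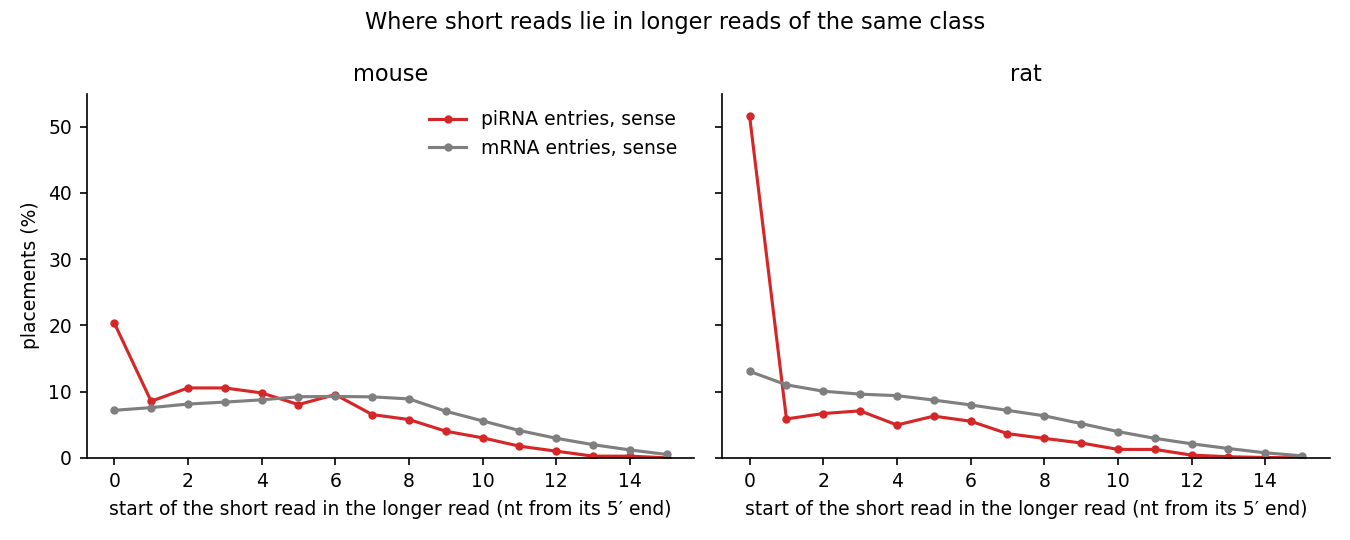
Start of each short sense read inside longer reads of 26 to 33 nt of the same class, as a share (%) of all placements, for piRNA-entry and mRNA-entry reads of the mouse and the rat library. The rat piRNA-entry line stands at 51.6% at the first base and at 5.87% at the next one. A sequence counts once at each start, and mRNA-entry sequences had more placements each in rat, so the heights of the lines are not directly comparable.

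The next counts cover sense piRNA-entry reads of 26 to 33 nt with 2 or more copies and no structured-RNA words. Of these, 3282 of 6385 in rat (51.4%) had at least 1 member with their 5′ end, and 112 of 1014 in mouse (11.1%). In rat, the shortened members were spread over all lengths, from 289 sequences at 18 nt to 559 at 25 nt. For the longer reads that had such members, the members' reads summed to a median of 0.600 of the longer read's own in rat and 0.500 in mouse. In 1021 rat cases and 35 mouse cases the short forms outnumbered the longer read. These cases are not independent, because a member counts for each longer read whose 5′ end it shares. A longer read also needed only 2 copies, so a few short reads could outnumber it. The most abundant shortened rat members did not begin with U. The 24-nt read of rno_piR_002302 (206 reads, with 87 reads of the 28-nt form) begins with G, and that of rno_piR_031729 (56 reads, with 62 of the 27-nt form) with A. By reads, 75.9% of the shortened rat members began with U, less than by sequence. The mouse 24-nt read of piR-142064 had 14 copies, and its 31-nt form had 2. These 3 examples, and piR-4944 named next, were chosen after their values were seen. The missing part of the piR-142064 example begins with TGGA. So does that of the shortened mouse members of piR-14877 (154 reads at 23 nt) and piR-4944 (16 reads at 19 nt). How adapters were removed is not given, and whether this common cut comes from it was not tested.

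The mouse member of piR-14877 with the most reads among those that share a 5′ end (154 reads at 23 nt, 3 of the 30-nt form) had 0 listed reads in rat, which allows up to 3 reads. Of the mouse trimmed members, 12.6% were listed in rat under any entry, and of the rat ones 1.02% in mouse.

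Members on the opposite strand of their record had a length of their own in rat. Without structured-RNA words, 3482 rat sequences with 9712 reads and 1533 mouse sequences with 3226 reads lay on the minus strand of their record. In rat, 1981 of them (56.9%) were exactly 19 nt, and these held 7849 reads, 80.8% of the antisense reads (80.0 to 81.6). The neighbouring lengths held 440 sequences at 18 nt and 339 at 20 nt. In mouse, 18 nt was most frequent with 655 sequences (42.7%), and 19 nt held 316 (20.6%). Antisense reads under mRNA entries had 26.04% of rat and 23.5% of mouse sequences at 19 nt. The rat 19-nt sequences matched their records well, since 71.5% had no mismatch. Of the mouse antisense sequences 8.15% had none, and of the rat antisense mRNA-entry sequences 6.12%.

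The leading rat members of this kind were 2 closely related 19-nt reads, of rno_piR_000177 with 1471 reads and of rno_piR_025440 with 1147. Each was also the last 19 bases of a 28-nt antisense read, which had 65 and 57 copies. They therefore counted as trimmed piRNAs with a shared 3′ end, and the antisense members with that relation held 2909 reads in 38 sequences. Neither was listed in mouse. The 19-nt rat members began with U in 25.5% of sequences, with A in 29.5%, with C in 30.4% and with G in 14.6%.

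Where these reads end was compared with the longer piRNA-entry reads of the opposite strand. A 19-nt antisense member was paired with a longer read (26 to 33 nt, any copy number, no structured-RNA words) when at least 14 bases from its 3′ end, and all further overlapping bases, were complementary. In rat, 731 of the 1981 sequences had such a partner. For 340 of them (46.5%, 42.9 to 50.2) the 3′ end lay opposite base 11 of a partner, counted from 1 at the partner's 5′ end. The next most frequent base was 9, with 83 sequences. By reads, 3467 of 5581 paired reads ended opposite base 11. The read of rno_piR_000177 holds 1471 of these. With partners of at least 2 copies, 195 of 403 sequences (48.4%) ended there, and by reads 1442 of 3198 (45.1%, against 62.1% with any partner). The base-11 partner of the rno_piR_000177 read had 1 copy. The partners that had a member end opposite their base 11 numbered 731, 96.6% of them began with U, and 30 nt was their most frequent length. Of all 17982 longer rat reads searched, 89.2% began with U.

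By sequence the share was lower in the other rat sets, and the differences were not tested. Rat antisense members of other lengths ended opposite base 11 in 81 of 297 paired sequences (27.3%, 22.3 to 32.7), and rat sense members of 19 nt in 18 of 63 (28.6%, 17.9 to 41.4). Antisense members of 20 nt alone stood at 41.3% of 80 paired sequences (30.4 to 52.8). By reads the order differed, since 80.9% of the paired reads of the sense 19-nt members, 456 reads, ended opposite base 11. Rat mRNA-entry reads of 19 nt did so in 9 of 46 (19.6%, 9.36 to 33.9). In mouse, 8 of 316 antisense 19-nt members had a partner at all, among 1918 longer reads searched, and 1 of the 8 ended opposite base 11 (12.5%, 0.316 to 52.7). This interval includes the rat share, so no difference was detectable at this number of pairs. Of the examples printed above, the read of rno_piR_036199 had 192 copies and its partner 38, that of rno_piR_014686 had 321 and 3, and that of rno_piR_010217 had 145 and 9. The 411 longer antisense rat reads had A at base 10 in 60.1% of sequences, and all 17982 longer rat reads without structured-RNA words in 29.5%. In mouse the shares were 20.6% of 126 longer antisense sequences and 28.3% of all 1918.

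**Figure D5:**
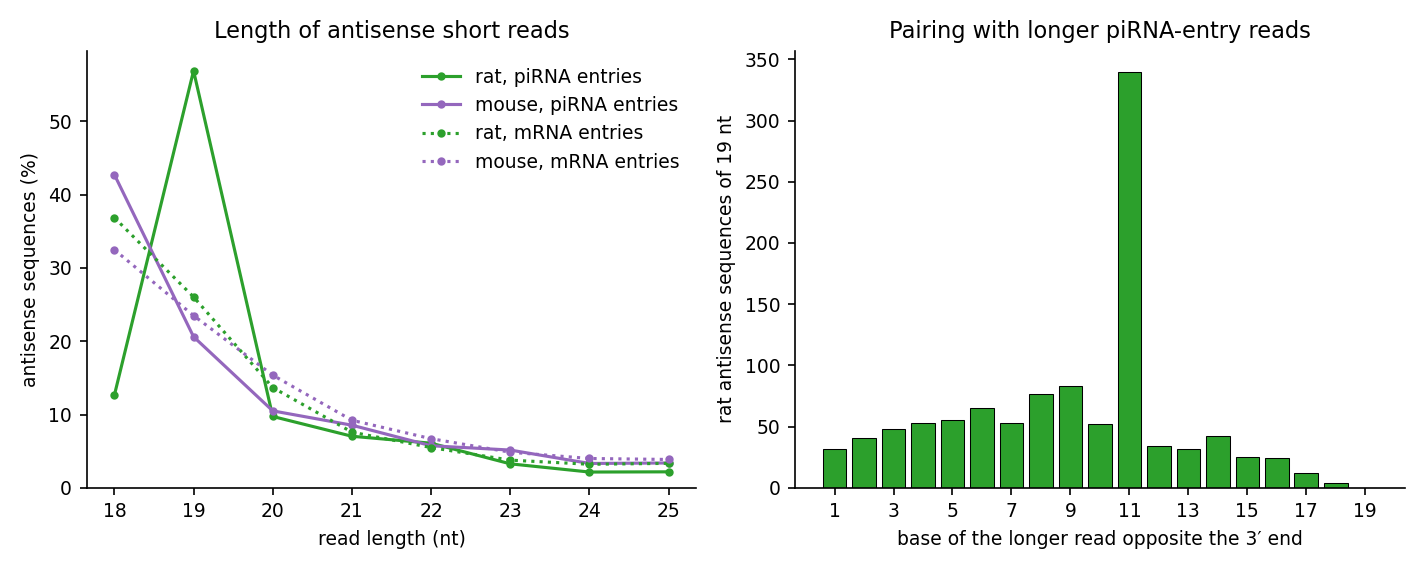
Left, share (%) of antisense sequences without structured-RNA words by length for piRNA and mRNA entries in both libraries, where 56.9% of the rat piRNA-entry sequences stand at 19 nt. Right, number of rat 19-nt antisense members whose 3′ end lies opposite each base of a longer piRNA-entry read, with 340 at base 11 and at most 83 at any other base (a sequence with several partners counts at each base).

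A few members were microRNA sequence under a piRNA record. In rat, 71 member sequences with 1218 reads had miRNA words, led by 800 reads of 23 nt under rno_piR_030373. Record rno_piR_010469 held reads of 24 nt with 226 and 45 copies. The second contains the whole mature miR-34b-5p, a microRNA of germ cells and ciliated cells (RefSeq, mouse Mir34b, GRCm38.p6, chr9:51103610-51103632), with 1 more base at its 5′ end (capitals, the mature sequence).
rno_piR_010469 (rat): tAGGCAGTGTAATTAGCTGATTGT
The whole mature miR-17-5p, with 1 more base at its 3′ end, was found in 16 reads of rno_piR_012452, in 3 sequences. In mouse, 17 sequences with 33 reads had miRNA words. Another 14 with 99 reads had words of reads listed under snRNA, the RNAs of the spliceosome. Of these 99 reads, 96 lay on the minus strand of their piRNA record, and 12.1% had no mismatch to it. The leading one, 19 nt of piR-11730 with 42 reads and 2 mismatches, occurred at 5 places in annotated mouse transcripts. Whether these members are pieces of snRNA was not tested.

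The unplaced members remained the largest group by sequence. Of these, 45 rat sequences with 89 reads and 3 mouse sequences with 5 reads carried words of the 13 tRNA genes at hand. Since so few tRNA genes could be read, other unplaced members, also abundant ones, may be tRNA sequence. Most had 1 copy: 84.8% of the rat and 52.5% of the mouse unplaced sequences had 1 read. In rat, 66.0% matched their record without a mismatch and 77.9% of the sense ones began with U. In mouse the shares were 16.9% and 40.5%. A longer piRNA-entry read of any length and copy number held 30.9% of the rat and 11.03% of the mouse unplaced sequences. A longer read under an mRNA entry held 5.82% in rat but 29.1% in mouse. No longer listed read held 63.3% and 62.5%. The most abundant rat unplaced member was a 21-nt read of rno_piR_038396 with 2054 copies, and this record had 2286 member reads and no read of 26 to 33 nt. The next was an 18-nt read of DQ603738.1 with 1223 copies and 2 mismatches to the record, and it had 6 reads in mouse under an mRNA entry. In mouse the leading ones were an 18-nt read of piR-127318 with 201 copies a 20-nt read of piR-128607 with 136 and a 24-nt read of piR-9692 with 110. The third rat one was a 21-nt read of rno_piR_003736 with 604 copies and 2 mismatches.

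The mouse members were also searched in GENCODE vM21 transcripts, on GRCm38. Of the unplaced sequences 37.8% occurred exactly in the sense of a transcript, 999 of them in transcripts annotated as protein coding, and 4.85% occurred only in antisense. Of the trimmed ones 62.9% occurred in sense, and 138 in protein-coding transcripts. These exact matches include overlaps of annotation, as with the piR-524 reads, which lie both in the tRNA gene and in an exon of Mettl26 (the 21-nt read at chr17:25875117-25875137), and the piR-1330 reads, which occurred in a transcript of Tmem38b (the 18-nt read at chr4:53860754-53860771). No rat reference was used here.

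Most records held members of a single content group. In mouse, 2643 of 2763 records (95.7%) had members of 1 content group only, and in rat 8473 of 9183 (92.3%). Among these, 1150 mouse and 5230 rat records had 1 member read and could hold only 1 group, so the shares say little about the records. The 3 leading records held 31.3% of mouse and 26.2% of rat member reads, and 13 and 12 records were enough for 50 percent of them. In mouse 88.9% of the records with a member had no read of 26 to 33 nt at all, and in rat 57.0%.

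Of the 23446 member sequences, 116 were members in both libraries, of which 64 were rRNA sequence in both, 6 tRNA and 20 trimmed piRNA. Listed in both libraries under any entry were 1682, and the rest of the overlap lay under other classes: 625 mouse members stood under rRNA entries in rat and 364 under mRNA entries. Of the mouse rRNA-sequence members 75.3% were listed in rat, of the unplaced ones 1.61%. For the 161 sequences with at least 100 reads over both libraries, 106 (65.8%) were at least 2-fold higher in rat and 25 (15.5%) at least 2-fold lower. Of all 1965 sequences of 18 to 25 nt compared in this way, 59.4% were higher and 20.7% lower, so the members stood near the background. Without SNORD58 reads in the mouse total every log2 ratio changed by -0.60, and 90 members (55.9%) were higher and 31 lower, against 52.0% and 25.95% of all compared. The largest rat excess was the DQ603738.1 read named above, with 83.5 rpm in rat and 0.510 in mouse (log2 ratio 7.35, 6.23 to 8.80). Overlapping pieces of rRNA sequence followed, of piR-1086 with 67.9 and 0.425 rpm (log2 7.32, 6.09 to 8.95) and of piR-971 with 40.5 and 0.255 rpm (log2 7.31, 5.76 to 9.59). The largest mouse excess was the 18-nt read of piR-6452, with 150 mouse reads and 1 rat read (log2 -7.55, -12.86 to -5.05). Then came a 19-nt read listed under rRNA in mouse and under rno_piR_001233 in rat, with 285 and 2 reads (log2 -7.47, -10.52 to -5.61), and one of piR-396 with 280 and 3 (log2 -6.86, -9.15 to -5.30).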

How the data were processed

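Small RNAs of caput sperm were measured in 1 mouse and 1 rat library, and samples were grouped by species from their titles. Per the submitters' processing notes, Bowtie 0.12.7 and the builds mm9 and rn5 were used, with no role given. How adapters were removed and which filters applied is not given in the sources. Per the file headers, the authors listed each distinct sequence once, with its raw read count, a single matched entry and up to 2 mismatches. Sequences on the minus strand were turned to the reverse complement. Of such mouse piRNA-entry sequences, 200 had plus-strand tRNA or rRNA words after turning and 1 as printed, and in rat 12 and 8 (264 and 8 reads).

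Content was assigned as stated with the results. Equal tRNA and rRNA shares went to the class with more copies of the words, a rule set after the data were seen, as were the pairing of antisense members and the split of rRNA into kinds. 5S and 18S words came from Rfam-named entries and GENCODE rRNA transcripts, 5.8S words from Rfam-named entries. Values were computed with Python 3.11.15, pandas 2.3.3 and scipy 1.17.1, as shares with exact 95% intervals and ratios with exact conditional binomial intervals. Named were the 5 most abundant members and the 3 most abundant of each group per library, the 3 records with most reads, and the 3 highest and lowest ratios among shared sequences with at least 100 reads. Not all of these are printed with their sequence, and further examples are marked. The members, lists and rules were chosen with earlier results of these data known. The alternatives tried are in the closing section.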

Additional observations from a re-analysis of the deposited data

How the results depend on the processing

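Of 102 alternative values, 72 left the counting interval of the value in the report and the other 30 did not. Some of these 30 could not move, since the most abundant member left out was rRNA sequence in both libraries. The cause of these moves was not tested. With each distinct sequence counted once, the short piRNA-entry share of listed sequences was 0.611% in mouse and 2.76% in rat. The rRNA-sequence share became 24.97% and 4.55%, the tRNA-sequence share 1.75% and 3.44%, the trimmed share 5.41% and 27.2%, and the first-base U share of trimmed and unplaced members 34.9% and 69.6%. With piRNA hosts looked for first, these 4 were 7.31% and 1.89%, 0.263% and 0.653%, 64.9% and 67.1%, and 21.5% and 29.5%. With all 14-nt words required they were 63.6% and 30.5%, 0.530% and 16.3%, 6.71% and 21.9%, and 35.6% and 52.3%. With reference reads of at least 100 copies they were 61.7% and 28.9%, 0.643% and 14.7%, 8.99% and 25.1%, and 34.7% and 50.6%. With only 18 to 23 nt, they were 61.8% and 31.5%, 0.557% and 8.77%, 22.96% in rat for the trimmed share, and 34.6% and 49.6%, and the share of listed reads was 0.220% and 0.381%. Without the most abundant member sequence, the rRNA-sequence share was 63.7% and 23.9%, the rat tRNA-sequence share 19.5%, the rat trimmed share 22.97%, and the share of listed reads 0.267% and 0.477%. Without reads of the SNORD58 entry in the total, the mouse share of listed reads was 0.422%. With piRNA hosts of at least 10 copies the trimmed share was 2.67% and 13.2%.

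The following, and the folds between libraries under each alternative, were chosen after seeing the data. With members free of mismatches only, the rRNA-sequence share was 80.7% and 35.5%, the tRNA-sequence share 0.395% and 18.3%, the trimmed share 7.04% and 22.5%, and the U share 50.0% and 61.7%. With tRNA gene words added, the tRNA-sequence share was 3.27% and 20.6%, the trimmed share 4.05% and 18.0%, and the U share 39.6% and 56.2%. Over the alternatives run, the share of paired rat 19-nt antisense members that end opposite base 11 was 46.3% to 48.4%. The limit of 18 to 23 nt and the loss of the most abundant member could not change this share. The share of sense trimmed sequences with a shared 5′ end was 27.3% to 38.8% in mouse and 62.5% to 68.9% in rat. The 19-nt share of antisense sequences was 19.9% to 22.4% in mouse and 55.6% to 73.8% in rat. The planned search for cloverleaf tRNA genes in a genome was not run. No paired analysis was possible because each species had 1 library. Counting error is small at this depth, and with 1 library per species the spread between animals is unknown.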
